A study of Drosophila melanogaster with 6 samples.

Results

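The 5S ribosomal RNA gene copies were the 96 annotated features whose names begin with rRNA:5S, out of 123041 annotated features and 152 rRNA features in each of 6 libraries. They were chosen by name alone, by a rule that used no measured value, though earlier results of these data were known. All 96 matched a 5S rRNA entry of RefSeq by locus tag. They lie in 1 tandem array on chromosome arm 2R between 19729562 and 19766278 (Release 6 plus ISO1 MT, the assembly also called dm6), a span of 36.717 kb. Each annotated copy is a whole non-coding gene: 94 copies are 135 bases long, and CR33391 and CR33405 are 134 bases long, so that levels of single copies are compared here at nearly equal length. The distance from 1 gene start to the next had a median of 369 bases, with a range of 359 to 402 bases. RefSeq places 4 pseudogenes in the same array (CR33416, CR33371, CR33363 and CR33356), which are not members.

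5S rRNA is a small RNA of the large ribosomal subunit. Unlike 18S, 5.8S and 28S rRNA, which are cut from a shared precursor made by RNA polymerase I, it is transcribed by RNA polymerase III from its own genes. The ribosomal proteins RpL5 and RpL11 assemble with it into a 5S ribonucleoprotein before it enters the ribosome. Because the genes of the array are close to identical, most 5S reads cannot be assigned to 1 gene, and a value for a single copy is a share of reads that fit several copies.

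The libraries came from OSS cells, a Drosophila melanogaster line of ovarian somatic sheath origin. All cultures, controls included, were transfected with Asterix carrying a C-terminal TEV-Strep tag, expressed from the vector pAWG under the act5c promoter, which is not its own promoter. Asterix (Gtsf1) is a small zinc-finger protein required for Piwi-dependent silencing of transposons. In eCLIP, ultraviolet light joins a protein to the RNA it touches, the RNA is trimmed with RNase, and the protein is pulled down with its RNA, here on Strep-binding magnetic beads, and an input library is made from the lysate without the pull-down. The 4 groups were the crosslinked input (2 libraries) and crosslinked IP (2 libraries), irradiated at 254 nm with 400 mJ, and the non-crosslinked input and non-crosslinked IP (1 library each), which had no irradiation.

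Annotated reads numbered 12391586 to 13658478 in the 3 inputs and 2018241 to 2921685 in the 3 IP libraries. All rRNA together took 85.6% to 87.0% of annotated reads in the inputs, 60.1% in the IP without crosslinking, and 68.0% and 69.5% with it. The cell label was set against exons of the somatic gonad gene tj, at 115 to 154 CPM (counts scaled by annotated reads) in the 6 libraries, and fs(1)Yb, at 5.39 to 12.2 CPM. Exons of the germline genes vas and nos were at 0 to 0.187 CPM in the inputs and 0.091 to 3.77 CPM in the IP libraries. AGO3, a germline Piwi protein gene, had 0 to 0.020 CPM over exons and 4.07 to 6.31 CPM over introns in the inputs, and 20.6 to 49.4 CPM over introns in the IP.

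Summed over the 96 copies, 5S rRNA made up 2.09% of annotated reads in the non-crosslinked input, 6.17% and 4.13% in crosslinked inputs 1 and 2, 0.693% in the non-crosslinked IP, and then 4.67% and 5.60% in crosslinked IP libraries 1 and 2. The crosslinked IP values lay between the crosslinked input values, and both single non-crosslinked libraries lay below all 4 crosslinked ones. These shares stand for 261822, 764375, 563617, 13981, 103004 and 163691 reads in the same order. The 95% Wilson interval was 2.087% to 2.103% for the non-crosslinked input and 0.681% to 0.704% for the non-crosslinked IP, and covered counting error only, since reads from amplified libraries are not independent molecules. The mean share was 5.15% ± 1.44 (SD, n = 2) in the crosslinked input and 5.13% ± 0.661 (SD, n = 2) in the crosslinked IP. An exact two-sided permutation test of these shares gave p = 1.0, where 2 libraries against 2 cannot give less than 0.333.

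**Figure D1:**
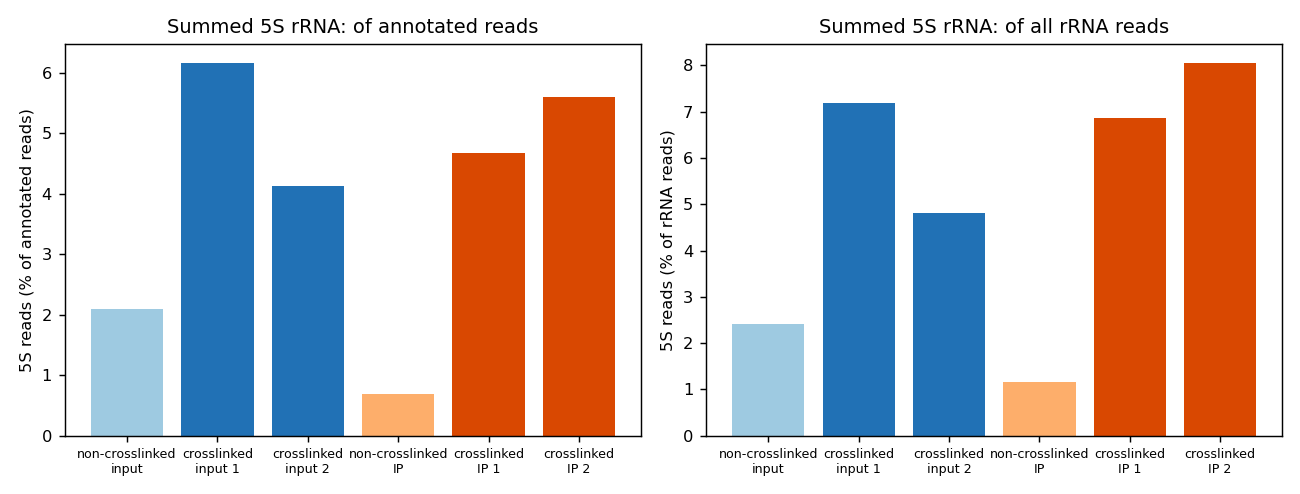
Bars give the summed reads of the 96 5S copies in each of the 6 libraries, as a percentage of annotated reads (left) and of all rRNA reads (right). On the left the crosslinked IP bars (4.67% and 5.60%) stand between the crosslinked input bars (6.17% and 4.13%), and the non-crosslinked IP bar is the lowest at 0.693%.

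Within rRNA the order of the libraries was similar. 5S took 2.41% of rRNA reads in the non-crosslinked input, 7.19% and 4.82% with crosslinking, 1.15% in the non-crosslinked IP, and then 6.86% and 8.06% in the IP with crosslinking. The group means were 6.01% ± 1.68 (SD, n = 2) in crosslinked input and 7.46% ± 0.845 (SD, n = 2) in crosslinked IP. The groups overlapped, with an exact two-sided permutation p of 0.667.

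The ratio of IP to input differed in sign between the crosslinked pairs of equal number. On the log2 scale of CPM plus 1, the IP was -0.40 relative to input in pair 1 and 0.44 in pair 2, and the group means differed by -0.0035. In the non-crosslinked pair the value was -1.60. Nothing in the labels ties input 1 to IP 1, so the pairs only share a number.

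In a model across all features, with all 5S reads entered as 1 row, the call for the sum followed the scaling. With TMM factors, which set the bulk of the 13376 tested features near 0, summed 5S was lower in crosslinked IP by a log2 fold change of -0.87 (SE 0.33, n = 2 and 2, adjusted p = 0.0397, edgeR's quasi-likelihood test, Benjamini-Hochberg-adjusted). In that fit 27.6% of all features were called lower and 29.3% higher, and the median log2 fold change of all features was -0.07. Scaled by annotated reads alone, the sum was at -0.0035 (SE 0.15, adjusted p = 0.986, edgeR's quasi-likelihood test), while the median of all features stood at 0.76. Scaled by rRNA other than 5S, the sum turned to 0.33, with an adjusted p of 0.132 in edgeR's quasi-likelihood test. Scaled by annotated reads other than rRNA, it was -1.13, with an adjusted p of 2.13e-05 in edgeR's quasi-likelihood test. The call held without crosslinked input 1 (-0.76) and without crosslinked input 2 (-1.60). Leaving out crosslinked IP 1 gave -0.39 (adjusted p = 0.644, same edgeR test) and leaving out crosslinked IP 2 gave -0.59 (adjusted p = 0.494).

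Relative to the libraries without crosslinking, summed 5S was higher in the crosslinked libraries of both kinds. The crosslinked IP libraries held 46673 and 56026 CPM against 6927 CPM in the non-crosslinked IP, 6.74 and 8.09 times as much. The crosslinked inputs held 61685 and 41265 CPM against 20947 CPM in the non-crosslinked input, 2.94 and 1.97 times as much. In a fit of the 4 groups, where the lone non-crosslinked libraries are assumed to vary like the replicated groups, the IP difference was 3.07 on the log2 scale (SE 0.46, adjusted p = 0.000521, edgeR's quasi-likelihood test). Under the other scalings of that fit it was 2.89 by annotated reads and 3.25 by annotated reads other than rRNA. The input difference was 1.30 (SE 0.42) and missed the threshold with TMM factors (adjusted p = 0.0630, edgeR's quasi-likelihood test), and passed it when scaled by annotated reads (1.30, adjusted p = 2.45e-06) or by annotated reads other than rRNA (1.16, adjusted p = 0.000151). The IP-over-input ratio was higher with crosslinking than without by 1.77 (SE 0.56, adjusted p = 0.115 in edgeR's test with TMM factors), by 1.59 scaled by annotated reads (adjusted p = 3.42e-05) and by 2.08 scaled by annotated reads other than rRNA (adjusted p = 5.44e-06). With 1 library per non-crosslinked group, library and condition cannot be told apart.

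The 96 copies fell into 26 groups with equal values in all 6 libraries (to within 0.01 reads), the largest of 28 copies, and into 2 widely separated levels. At the high level were 48 copies, which held 99.8% of 5S reads in the non-crosslinked input, 99.5% in both inputs with crosslinking, 97.0% in the non-crosslinked IP, and then 94.7% and 93.3% in the IP with crosslinking. Each of them had 434 to 473 CPM in the non-crosslinked input, 1277 to 1294 and 855 to 867 CPM in the crosslinked inputs, 139 to 149 CPM in the non-crosslinked IP, and 895 to 938 and 1048 to 1116 CPM in the crosslinked IP. The other 48 copies were at 0.034 to 8.53 CPM in the non-crosslinked input, and together held 0.24%, 0.524% and 0.49% of 5S reads in the 3 inputs. Their share was 3.03% in the IP without crosslinking and 5.29% and 6.70% with it, above every input. These levels were drawn after the values were seen, and their differences are given as a description.

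**Figure D2:**
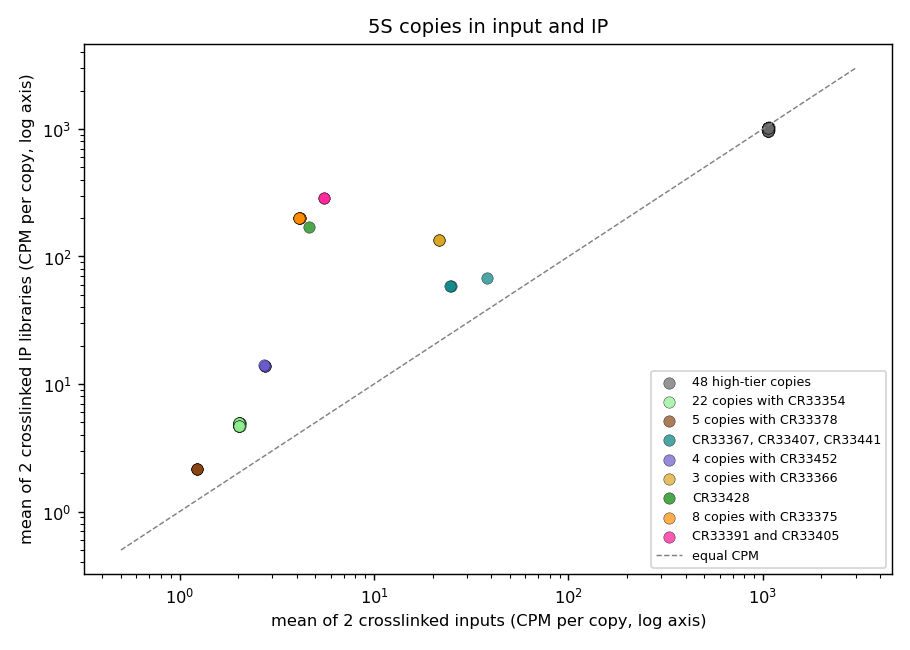
Each point is 1 of the 96 copies, at its mean CPM over the 2 crosslinked inputs (horizontal, log axis) and over the 2 crosslinked IP libraries (vertical, log axis), with equal CPM on the dashed line. The 48 high copies lie on 1 spot near the line, and 11 low copies (orange, pink and dark green) lie far above it.

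Taken copy by copy, 18 copies were called higher and 48 lower in crosslinked IP than in crosslinked input, and 30 did not pass the threshold (edgeR's quasi-likelihood test, Benjamini-Hochberg adjustment over 13471 features, 0.05). Over all features 29.6% were called higher and 25.8% lower, with a median log2 fold change of -0.03 against -0.44 over the 96 copies. All 96 copies passed the filter on low counts. The 48 calls of lower were the 48 high copies, and the 18 calls of higher were all at the low level. Copies of equal value repeat the same reads, so these counts are not independent observations. Scaled by annotated reads alone, 43 copies were called higher and 0 lower, where 44.4% and 7.88% of all features were. With limma on log2(RPM + 1), 42 were higher and 0 lower, beside 43.3% and 11.4% of all features.

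The high copies moved together, between -0.97 and -0.89 on the log2 scale with adjusted p-values of 0.0242 to 0.0348 in edgeR's quasi-likelihood test. This is the change of the sum, which they make up. No high copy was called lower without crosslinked IP 1 (12.1% of all features were) or without crosslinked IP 2 (8.64%), nor at an adjusted p under 0.01 (14.3%) or with a change of at least 2-fold (22.7%). Under these stricter rules 18 copies were called higher, where 22.5% and 27.4% of all features were. Copies called higher numbered 20 without crosslinked IP 1 (17.3%) and 18 without crosslinked IP 2 (16.6%).

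CR33362 had the highest mean level over the 6 libraries and CR33370 the lowest fold change of the 96. CR33362 held 473 CPM in the non-crosslinked input, 1294 and 867 CPM in the crosslinked inputs, 149 CPM in the non-crosslinked IP, and 938 and 1116 CPM in the crosslinked IP. CR33370 held 472 CPM, 1293 and 866 CPM, 148 CPM, and 899 and 1053 CPM in the same order. Both stood slightly above the other high copies in every input. In the crosslinked IP CR33362 was still the highest, while CR33370 lay below the 28 copies of the largest group of equal values. Their log2 fold changes were -0.90 (SE 0.30, adjusted p = 0.0330) and -0.97 (SE 0.30, adjusted p = 0.0242) in edgeR's quasi-likelihood test, a difference well inside either error.

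Small differences among the high copies show which of them took extra reads, beyond the level that all 48 shared. That shared level is set by the lowest high copies, such as CR33445. CR33370 had 38.9 CPM above it in the non-crosslinked input, 16.4 and 11.6 CPM in the crosslinked inputs, 8.91 CPM in the non-crosslinked IP, and 3.15 and 4.76 CPM in the crosslinked IP, so its excess was largest in the inputs. The 28 copies of the largest group, such as CR33446, had the opposite pattern, with 0.241 CPM of excess per copy in the non-crosslinked input, 0.879 and 0.616 CPM in the crosslinked inputs, 1.50 CPM in the non-crosslinked IP, and 39.5 and 63.3 CPM in the crosslinked IP. CR33424 and the 3 copies equal to it (CR33360, CR33387 and CR33415) had 0.204 and 0.101 CPM of excess in the crosslinked inputs and 7.12 and 12.1 CPM in the crosslinked IP. CR33451 differed from the large group mainly in the non-crosslinked input, with an excess of 0.631 CPM. CR33374, CR33395 and CR33397 had no excess above 0.022 CPM. These excess reads were compared after the values were seen and were not tested, and CR33445 and CR33446 were named then too.

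The copies that rose most were CR33405 and CR33391, the pair of 134 bases, which had equal values in every library. Each had 1.60 reads in the non-crosslinked input, 94.7 and 46.8 reads in the crosslinked inputs, 22.2 reads in the non-crosslinked IP, and 479 and 1041 reads in the crosslinked IP. In CPM these were 0.128, then 7.64 and 3.43, then 11.0, and then 217 and 356. Both crosslinked IP libraries were far above both crosslinked inputs, and the non-crosslinked IP lay between. The fold change was 29.1 (log2 4.86, SE 0.45, adjusted p = 9.91e-05, edgeR's quasi-likelihood test).

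A set of 8 copies (CR33375, CR33400, CR33401, CR33402, CR33419, CR33420, CR33439 and CR33442) rose by nearly the same factor. CR33375 had 0.698 CPM in the non-crosslinked input, 5.18 and 3.04 CPM in the crosslinked inputs, 6.48 CPM in the non-crosslinked IP, and 156 and 248 CPM in the crosslinked IP. Its values rested on 64.2 and 41.6 reads in the crosslinked inputs and 343 and 724 reads in the crosslinked IP. The 8 log2 fold changes lay between 4.78 and 4.80 (27.6-fold to 27.9-fold), with SE of 0.37 and adjusted p-values of 4.10e-05 to 4.28e-05 in edgeR's quasi-likelihood test.

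CR33428 rose as well, with a lower level than these in the non-crosslinked IP. It had 0.211 CPM in the non-crosslinked input, 5.45 and 3.83 CPM in the crosslinked inputs, 0.922 CPM in the non-crosslinked IP, and 133 and 204 CPM in the crosslinked IP. Its fold change was 20.7 (log2 4.37, SE 0.32, adjusted p = 3.74e-05, edgeR's quasi-likelihood test). In the non-crosslinked IP its value was 1.86 reads, under the 3 reads taken here as the floor, whereas CR33375 had 13.1 and CR33405 22.2 reads there. Of the low copies, CR33405 and CR33449 were named by rule and the others after their values were seen.

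Together these 11 copies held 0.029% of 5S reads in the non-crosslinked input, then 0.101% and 0.085% in the inputs with crosslinking, 1.08% in the non-crosslinked IP, and then 3.88% and 5.17% in the IP with crosslinking. Their share of 5S was thus 38.4 and 61.0 times as high in crosslinked IP as in the crosslinked input of equal number. In the non-crosslinked IP it was 36.9 times as high as in the non-crosslinked input. That last value pooled 27.7 for the 8 copies with CR33375, 260 for CR33391 and CR33405, and 13.2 for CR33428. The 260 and 13.2 rest on 3.20 and 2.64 summed reads in the non-crosslinked input. In the crosslinked pairs these sets ran from 32.4 to 76.6. A share within 5S does not depend on how the libraries are scaled. In CPM the 11 copies summed to 6.13 in the non-crosslinked input, then 62.4 and 35.0 in the inputs with crosslinking, 74.7 in the non-crosslinked IP, and then 1813 and 2899 in the IP with crosslinking. The log2 fold change of CR33375 was 5.62 scaled by annotated reads alone and 4.50 scaled by annotated reads other than rRNA. With 1 crosslinked library left out at a time it ran from 3.96 to 5.41, that of CR33405 from 3.90 to 5.49 and that of CR33428 from 3.62 to 4.95. When the control group held all 4 libraries other than the crosslinked IP, 0 of the 96 copies were called by edgeR's quasi-likelihood test, where 0.0125% of all features were called higher and 0% lower, and CR33375 stood at 5.10.

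**Figure D3:**
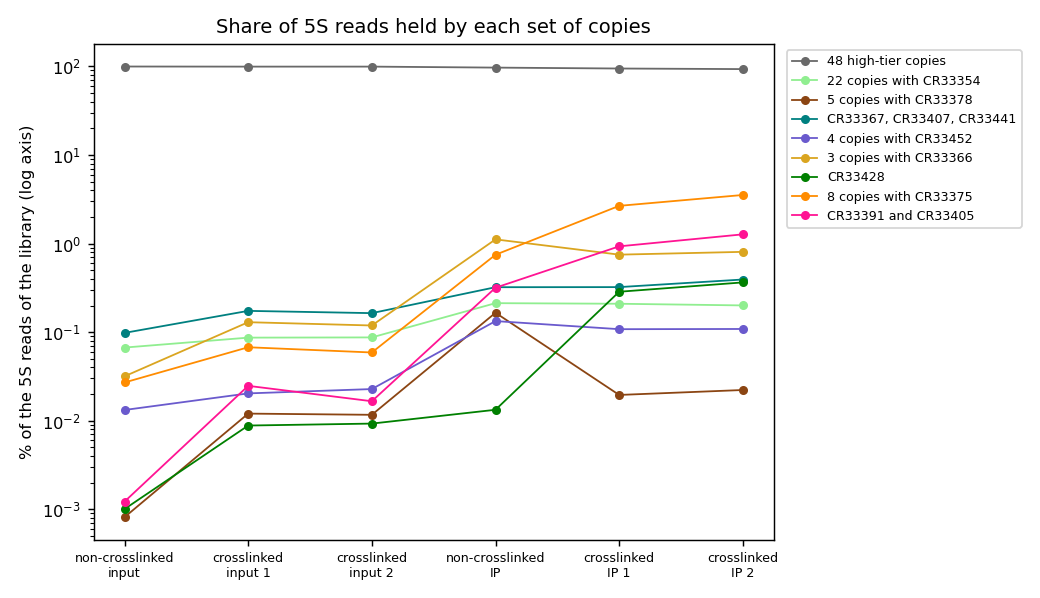
Lines join, for each set of copies, its share of the 5S reads in each of the 6 libraries (percent, log axis). The set of 8 with CR33375 goes from 0.027% in the non-crosslinked input to 2.67% and 3.54% in the crosslinked IP, while the 5 lowest copies with CR33378 peak in the non-crosslinked IP at 0.166%.

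The 11 copies were spread over the array rather than adjacent. Counted along the chromosome over the 96 copies and 4 pseudogenes, they held places 11, 14, 25, 33, 34, 48, 51, 52, 53, 62 and 78. CR33428 lies at 19738452 to 19738586, CR33405 at 19746943 to 19747076, CR33391 at 19752096 to 19752229 and CR33375 at 19757993 to 19758127. High and low copies alternated in 17 runs each, the longest of 10 high and 8 low copies.

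**Figure D4:**
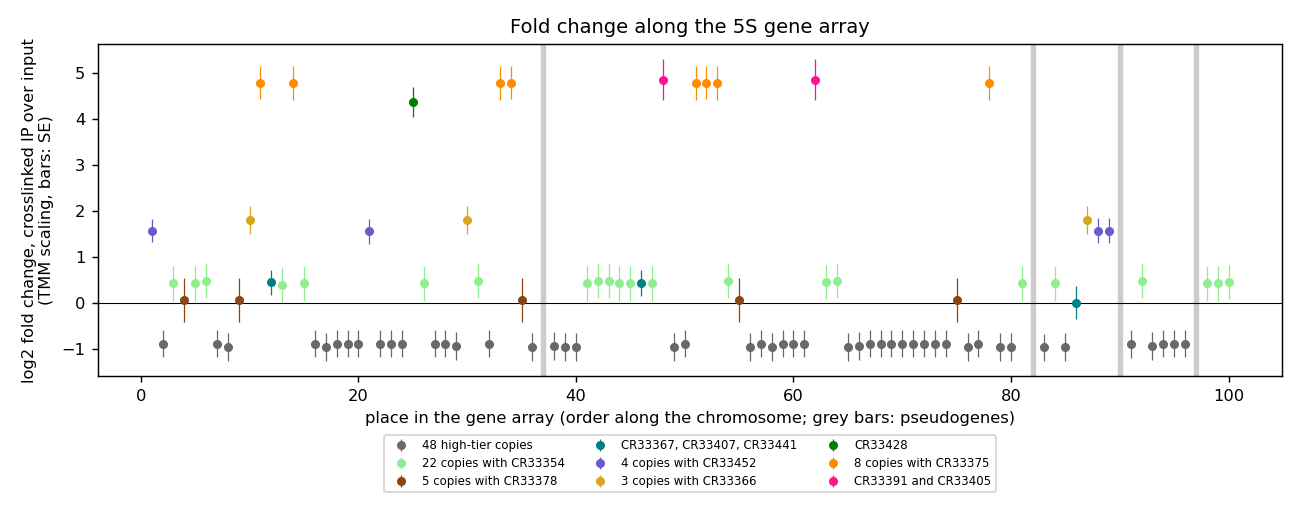
Each point is 1 copy at its place in the gene array (horizontal, 1 to 100, with the 4 pseudogenes as grey bars) and its log2 fold change of crosslinked IP over crosslinked input with its SE (vertical, TMM scaling). The 11 copies above 4 are scattered among high copies near -0.9 and low copies between 0 and 2.

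Smaller changes were found in 7 other low copies. The 3 copies CR33366, CR33423 and CR33443 rose 3.51-fold (log2 1.81, SE 0.31 for CR33366, adjusted p = 0.00153, edgeR's quasi-likelihood test). CR33366 had 2.22 CPM in the non-crosslinked input, 26.7 and 16.4 CPM in the crosslinked inputs, 25.8 CPM in the non-crosslinked IP, and 117 and 151 CPM in the crosslinked IP. The share of 5S reads of these 3 copies was higher in the non-crosslinked IP (1.12%) than in the crosslinked IP (0.75% and 0.807%), unlike that of the 11 copies. The 4 copies CR33452, CR33432, CR33364 and CR33365 rose by 1.56 to 1.58 on the log2 scale, with adjusted p-values of 0.00125 to 0.00163 in edgeR's quasi-likelihood test. CR33452 had 3.08 and 2.39 CPM in the crosslinked inputs and 12.8 and 15.3 CPM in the crosslinked IP.

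The other 30 low copies did not pass the threshold. Of these, 22 copies with CR33354 had log2 fold changes of 0.40 to 0.48 and levels of 2.43 to 2.45 and 1.63 to 1.65 CPM in the crosslinked inputs and 4.28 to 4.68 and 5.03 to 5.21 CPM in the crosslinked IP. CR33367, CR33407 and CR33441 were the most abundant of the 30: CR33367 had 49.6 and 26.8 CPM in the crosslinked inputs and 54.4 and 81.9 CPM in the crosslinked IP (log2 0.0036, SE 0.35, adjusted p = 0.994, edgeR's quasi-likelihood test). The 5 lowest copies (CR33378, CR33398, CR33418, CR33444 and CR33449) had equal values, and CR33449 was the copy lowest in mean level by the naming rule. Each had 0.427 reads in the non-crosslinked input, 18.4 and 13.2 reads in the crosslinked inputs, 4.63 reads in the non-crosslinked IP, and 4.03 and 7.28 reads in the crosslinked IP. No difference between crosslinked IP and crosslinked input was detected for them (log2 0.058, SE 0.48, adjusted p = 0.926, same test).

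Against the non-crosslinked IP, 91 of the 96 copies were called higher in crosslinked IP under each of 3 scalings, where 3.58% of all features were called higher with TMM factors (2.8% by annotated reads, 4.12% by annotated reads other than rRNA). All 48 high copies were among them, at log2 differences of 2.93 to 3.07 with TMM factors. The 5 copies not called were the lowest ones, and 43 of the 48 low copies were called. CR33375 stood at 5.18 (SE 0.53), CR33366 at 2.59 (SE 0.42) and CR33370 at 2.93 (SE 0.46) in the same edgeR fit.

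Between crosslinked and non-crosslinked inputs, the number of copies called followed the scaling. With TMM factors 29 copies were called higher, all of them low copies, where 4.17% of all features were. By annotated reads all 96 were called (4.12% of all features), and by annotated reads other than rRNA 74 were (3.25%). The high copies differed by 1.18 to 1.28 on the log2 scale with TMM factors. CR33375 rose by 2.46 (SE 0.61, adjusted p = 0.0173) and CR33366 by 3.24 (SE 0.46, adjusted p = 0.000216) in edgeR's quasi-likelihood test.

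Whether the IP-over-input ratio of a copy differed with crosslinking was tested in the same fit. With TMM factors 0 of 96 copies passed in either direction, where 1.86% of all features were called higher and 0.822% lower. By annotated reads 48 copies were called higher and 5 lower (1.28% and 1.3% of all features), the first being the high copies and the second the 5 lowest. By annotated reads other than rRNA 56 were called higher and 0 lower (3.15% and 0.762% of all features), namely the 48 high copies and the 8 copies with CR33375. For CR33375 the difference was 2.72 (SE 0.96, adjusted p = 0.146) with TMM factors and 2.97 (SE 0.86, adjusted p = 0.0454) by annotated reads other than rRNA in edgeR's quasi-likelihood test. For CR33405 it was -0.05 with TMM factors. That value rests on 1.60 reads in the non-crosslinked input, too few to measure a difference for this copy.

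The authors' deposited table gives 1 ratio per feature, with no stated formula, and lists 91 of the 96 copies, the 5 lowest being the ones not listed. In the authors' deposited table the 48 high copies had ratios of 1.56 to 1.66. The authors' deposited table put the 8 copies with CR33375 at 96.1 to 96.4, CR33428 at 70.1, and CR33391 and CR33405 at 30.1. It gave, in that same authors' deposited table, 6.78 to 9.67 to the 4 copies with CR33452, 3.66 to 3.99 to the 22 with CR33354, and 2.35 to 2.36 to the 3 with CR33366.

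The summed 28S and 5.8S features, the partners of 5S in the large subunit, were lower in IP than in input in all 3 pairs, and 5S in 2 of the 3. On the log2 scale of CPM plus 1, 28S was at -0.85 and -0.94 in the crosslinked pairs and -0.62 in the non-crosslinked pair. A separate set of 20 features annotated as 28S fragments went the other way, at 0.61 and 0.52, and at 0.30 without crosslinking. 18S, the RNA of the small subunit, was at 0.72 in both crosslinked pairs and -0.86 in the non-crosslinked pair. 5.8S was at -1.60 and -1.86, and at -0.42 without crosslinking. For 5S these values were -0.40, 0.44 and -1.60. Its crosslinked pairs lay further from each other than those of 28S, 18S or 5.8S. Those of mitochondrial rRNA (-0.14 and 0.90) and of the 5S pseudogenes (-0.50 and 0.77) lay further apart still. Mitochondrial rRNA was at -1.36 without crosslinking. It was 13.8 and 20.5 times as high in crosslinked as in non-crosslinked IP, and 5.92 and 4.26 times as high in crosslinked as in non-crosslinked input. 2S rRNA, which Drosophila cuts from the 5.8S region, had 0.091, 1.34 and 2.18 CPM in the inputs. In the IP libraries it had 475, 121 and 92.3 CPM. The 4 5S pseudogenes together had 22.6 CPM in the non-crosslinked input, 129 and 71.3 CPM in the crosslinked inputs, 23.3 CPM in the non-crosslinked IP, and 91.1 and 122 CPM in the crosslinked IP.

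**Figure D5:**
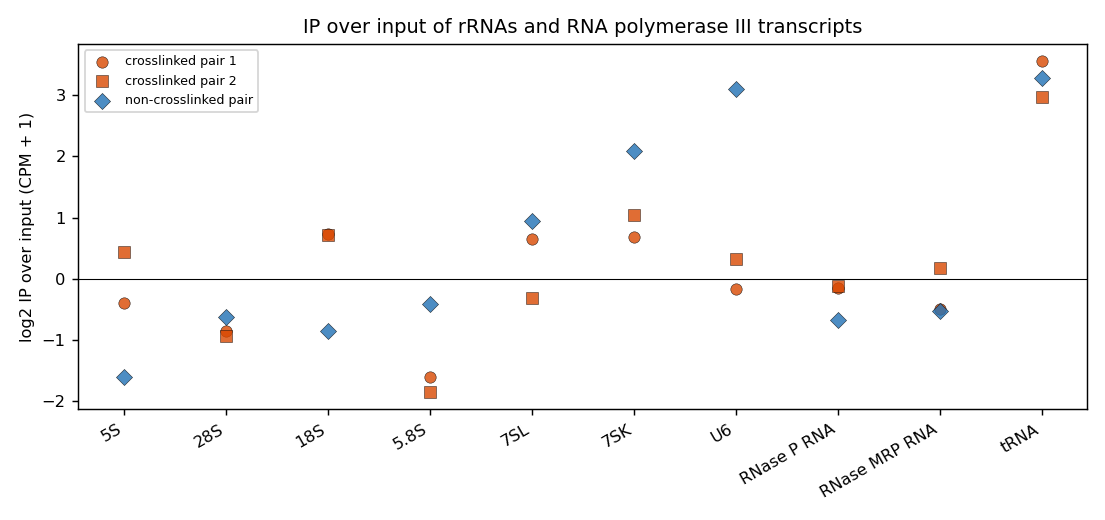
Points give log2 IP over input (CPM plus 1) of summed features for the 2 crosslinked pairs and the non-crosslinked pair. 5S lies at -0.40 and 0.44 in the crosslinked pairs and at -1.60 in the non-crosslinked pair, while tRNA lies at 2.96 or more in all 3.

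Of 10 features of other RNA polymerase III transcripts, 1 was called higher and 6 lower in crosslinked IP by edgeR's quasi-likelihood test, with a median log2 fold change of -0.82 against -0.07 over all features, of which 29.3% were called higher and 27.6% lower. The calls of lower came only from U6, RNase P RNA and RNase MRP RNA, and the median fell on the U6 features. The 3 U6 features had nearly equal values in each library, as did the 2 of 7SL, and RNase P RNA also had 2 features. These counts are therefore not of independent RNAs. The minor spliceosome RNA U6atac rose by 1.31 (SE 0.32, adjusted p = 0.00483, same edgeR fit). All 3 features of the spliceosomal U6 RNA fell by 0.82 (SE 0.26, adjusted p = 0.0201), the features of RNase P RNA, which trims tRNA precursors, fell by 1.08 and 0.88, and RNase MRP RNA, which cuts rRNA precursors, fell by 0.96, in the same edgeR fit. 7SL, the RNA of the signal recognition particle, was at -0.62 for both features and 7SK, a regulator of transcription elongation, at 0.02, and neither passed. Transfer RNAs, also made by RNA polymerase III, were in IP over input at 3.56 and 2.96 in the crosslinked pairs and 3.28 in the non-crosslinked pair (log2 of CPM plus 1). With annotated reads alone as the scale, 2 of the 10 features were called higher and 0 lower, beside 44.5% and 7.95% of all features.

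Few features were called in genes of the proteins that bind or process 5S rRNA. Of 40 features of RpL5, RpL11, La, Non3 and Rexo5, 19 were tested, 1 was called higher and 1 lower by edgeR's quasi-likelihood test, beside 29.3% and 27.6% of all features, and their median was -0.13 on the log2 scale. An exon of Non3, whose yeast counterpart Rpf2 helps to bring the 5S ribonucleoprotein into the pre-ribosome, rose by 1.68 (SE 0.50, adjusted p = 0.0130), and its summed exons held 3 and 13 reads (0.242 and 0.952 CPM) in crosslinked input and 9.33 and 7.50 reads (4.23 and 2.57 CPM) in crosslinked IP. An exon of La, which binds the ends of new RNA polymerase III transcripts, was at -0.87 (SE 0.33, adjusted p = 0.0412, same test). No tested feature of RpL5 or RpL11 passed. Several tested features of these 2 genes repeat equal values, so the 19 are not independent. The 4 RpL5 mRNA features, at 0.908 and 1.04 CPM each in the crosslinked inputs, all stood at the median of -0.13. Levels this low limit what could be called. The tested intron features of RpL5 and RpL11, at 21.2 to 68.6 CPM each in the crosslinked inputs, did not pass either. They stood at -0.44 for RpL5 (adjusted p = 0.136) and -0.45 for RpL11 (adjusted p = 0.110) in edgeR's quasi-likelihood test. TfIIIA, the factor that binds inside the 5S gene, was also searched for, but no exon, intron or mRNA feature matched that name.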

How the data were processed

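The 6 eCLIP libraries were grouped by pull-down and crosslinking as given in the sample titles. The authors deposited, per library, an estimated count for each annotated feature, in which a read that fits several features is divided between them, and an RPM value that is the same count scaled to its total. The authors also deposited a table of 1 ratio per feature that has neither a header nor a stated formula. Per the submitters' processing notes, bcl2fastq 2.19, STAR 2.5.2b and bedtools 2.29.0 were used, with the builds mm10 and dm6 and without a role for each. Strand, read filters and the removal of duplicates are not given in the sources used here, nor is how reads were divided among 5S copies.

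Reads outside annotation (2.15% to 3.23% of reads in the inputs and 7.87% to 13.6% in the IP libraries) entered neither library sizes nor tests. CPM are estimated counts scaled by annotated reads. For tests, estimated counts were rounded to whole numbers. Crosslinked IP and input were compared with edgeR 4.0.16 in R 4.3.3 (TMM, filterByExpr, quasi-likelihood F test, two-sided, Benjamini-Hochberg adjustment over all tested features, threshold 0.05), once with the 96 copies as rows and once with their sum. Each SE was derived from the log2 fold change and its F statistic, and is approximate where reads are few. On simulated counts the fit recovered 57% of 200 features changed 4-fold, and 1.72% of its calls were false. A feature that did not pass may therefore still differ. Apart from those 200 features, as many raised as lowered, the simulated IP and input shared 1 profile. These rates thus do not cover the scaling between the real IP and input libraries. Single shares were compared by exact permutation tests (scipy 1.17.1). Alternatives were DESeq2 1.42.0 (size factors and Wald test), limma 3.58.1 on log2(RPM + 1), other library sizes, filters, controls and thresholds, a replicate block, and leaving out each library. The 4-group fit with the single non-crosslinked libraries, its scalings and the sets of copies were added after the values were seen.

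The members and gene lists were chosen with earlier results of these data known. Named by rule were the copies with the highest and lowest mean CPM and fold change and the 10 highest of the 68 copies outside the largest group of equal values. The list rule for U6 was limited to snRNA features. Gene positions come from RefSeq. No label says that replicate libraries came from separate cultures, so p-values measure only the spread between these libraries, which may be technical. Same-numbered libraries did not deviate together (r = 0.06 over 13471 features, a correlation across features, which are not independent). No sequences of the copies are printed.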

Additional observations from a re-analysis of the deposited data

Results flagged for a closer look

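In 3 flagged cases measures related to 5S rRNA moved one way in the non-crosslinked pair and the other way in both crosslinked pairs. The scale was log2 of IP over input in CPM plus 1. 18S rRNA was at -0.86 without crosslinking and at 0.72 in both crosslinked pairs. Introns of RpL5 were at -1.08 against 0.64 and 0.13, and introns of RpL11 at -0.52 against 0.54 and 0.25. Rexo5 exons (0.40 against -0.54 and -0.23) and La mRNA (0.59 against -0.22 and -0.53) also differed in sign. These 2 were not flagged, and held 26 reads or fewer in every library. With 1 non-crosslinked pair, these differences were not tested. The signs in the crosslinked pairs depend on the scale. Scaled by annotated reads alone, the median log2 fold change of all features in crosslinked IP was 0.76. With TMM factors the tested intron features of RpL5 were at -0.44 and those of RpL11 at -0.45.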

How the results depend on the processing

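The summed 5S change (-0.87) was past the threshold in 7 alternatives and lost it in 7: -0.80 with DESeq2 size factors (edgeR adjusted p = 0.0760), -0.0035 with library size alone, -0.29 with the non-crosslinked libraries among the controls, -0.075 with limma on RPM, -0.83 with the replicate block (edgeR adjusted p = 0.0976), and with either crosslinked IP left out. Leaving out 1 library gave -1.60 to -0.39, and rRNA other than 5S as library size turned it to 0.33. With the replicate block 18 copies were called higher and 48 lower. Copies called higher numbered 43 with library size alone, 42 with limma and 0 with the wider control, and 14 to 20 with 1 library left out. Copies called lower numbered 0 in these 3 settings, at an adjusted p under 0.01 and with a 2-fold minimum, and 0 to 49 with 1 library left out (0 without either crosslinked IP). With 1 library left out, the share of annotated reads (-0.0035) turned to 0.32 without crosslinked input 1 and 0.12 without crosslinked IP 1. Its range over these settings alone was -0.26 to 0.32. The share of rRNA (0.31) ran from 0.05 to 0.63 with 1 library left out. Scaled by annotated reads other than rRNA, the summed 5S change lay below these ranges, at -1.13 in edgeR's fit. Over annotated reads without rRNA, IP over input was -1.57 in pair 1, turned to -0.64 in pair 2, and was -3.21 without crosslinking; over all reads or in RPM the last was -1.76. Polymerase III features called higher were 2 and lower 0 with library size alone (0 to 1 and 0 to 8 with 1 library left out). 5S ribonucleoprotein gene features were 5 and 0 with library size alone, 6 were lower without rRNA in the library size, and 0 to 2 and 0 to 6 with 1 library left out. Of 413 settings for 30 copies, 315 kept their call, 74 lost it, 11 gained it and 13 turned sign, all in copies that had not passed: CR33378 and CR33449 to -0.27 without rRNA in the library size and -0.26 without a filter; CR33367 to -0.28, -0.29 in those settings, -0.23 with at least 10 counts, -0.036 with all 6 libraries and -0.87 to 0.56 with 1 library left out; and, likewise with 1 library left out (negative without crosslinked input 2), CR33354 at -0.38 to 0.87, CR33361 at -0.32 to 0.87, CR33407 at -0.30 to 0.97 and CR33441 at -0.29 to 0.98. The cause was not tested. Few reads of the low copies, mainly in the inputs for the 11 that rose most, and the rounding of divided reads limit their values.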
